A study of Mus musculus with 2 samples.

Results

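The osteoblast and chondrocyte fate genes examined here are Runx2, Sp7, Alpl, Bglap, Spp1, Ibsp, Sox9, Acan, Dlx5 and Msx2. They are 10 of the 46095 gene symbols in the deposited count table, taken by symbol, and all 10 were found. C3H10 cells, a mouse embryonic mesenchymal line, were transfected with 100 nM of an antisense oligonucleotide (ASO). It targeted the long noncoding RNA MALAT1 (ASO MALAT1) or was a negative control (ASO NC), and the cells were then induced to form adipocytes. Both groups received isobutyl-1-methylxanthine, dexamethasone, troglitazone and insulin for 2 days and insulin alone after that, and RNA was taken at differentiation day 6. The labels give the strain as C57BL/6, whereas the name of the line points to C3H mice. Each group is 1 library of total RNA without rRNA from 1 line, and which of the ASOs designed against MALAT1 was sequenced is not stated. With 1 library per group there is no replicate check, so each difference below compares these libraries, not the conditions.

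Mesenchymal progenitors can become fat, bone or cartilage cells, and the choice is set by transcription factors that oppose one another. RUNX2 and then SP7 (osterix) drive the osteoblast programme, with the homeodomain proteins DLX5 and MSX2 acting around them. Osteoblasts then make alkaline phosphatase (Alpl), osteopontin (Spp1), bone sialoprotein (Ibsp) and, late, osteocalcin (Bglap). SOX9 drives the chondrocyte programme, whose main proteoglycan is aggrecan (Acan). Dexamethasone and PPAR-γ agonists such as troglitazone are used to push C3H10 cells towards fat.

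The control library held 58147539 counts and the ASO MALAT1 library 61653549 counts. Levels are given as counts per 1000000 (CPM) of the library size scaled by edgeR's TMM factors, and log2 fold changes are ASO MALAT1 over ASO NC with a prior count of 0.5. The 95% intervals are exact Clopper-Pearson limits from the counts and cover counting error only. Where a pair of counts is given, the control library comes first. A gene at 0 counts could still have up to 3, or 0.0520 CPM for the control and 0.0483 CPM for the ASO MALAT1 library. Malat1 itself went from 170402 counts in the control to 45396 with ASO MALAT1, so 24.7% of the control level was left. Adipocyte markers went the same way, with 8 of the 11 tested more than 2-fold lower and a median log2 fold change of -1.30.

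The promoters of Spp1 and Bglap are shown first, because both hold the same short motif while their counts lie far apart. Each line gives the 150 bases before the RefSeq transcription start (build GRCm38.p6), 5′ to 3′ on the gene's strand. Capitals mark ACCACA, which is the RUNX core TGTGGT read on the other strand.
Spp1, chr5:104434961-104435110, plus strand: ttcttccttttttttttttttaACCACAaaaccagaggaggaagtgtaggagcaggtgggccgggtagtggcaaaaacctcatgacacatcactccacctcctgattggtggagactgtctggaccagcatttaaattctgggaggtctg
Bglap, chr3:88384467-88384616, minus strand: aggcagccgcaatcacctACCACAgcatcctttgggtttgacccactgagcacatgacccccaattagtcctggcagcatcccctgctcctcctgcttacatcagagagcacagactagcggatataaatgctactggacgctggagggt
The motif begins 128 bases before the start of Spp1 and 132 bases before that of Bglap. It is also 80 bases before the RefSeq start of Runx2, in a window that is not printed because it lies inside the longer Runx2 gene of GENCODE M21. Of the 9 windows that the promoter table gives for 7 members, these 3 hold the motif, and a second window of Spp1 does not. Searched on both strands, it is in 8.4% of the 32851 promoter windows of that length. A match of these letters describes the window and shows no binding.

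Spp1 and the transcription factor genes Sox9, Dlx5 and Runx2 were well counted, whereas Alpl, Msx2, Ibsp, Bglap, Sp7 and Acan were rare or undetected. Per kilobase of the longest GENCODE M21 transcript, the control library gave 827 reads per kilobase and 1000000 counts (RPKM) for Spp1, 27.5 RPKM for Sox9, 6.80 RPKM for Dlx5 and 5.12 RPKM for Runx2. The counting intervals of these neighbours in the order did not overlap. Alpl followed at 0.330 RPKM, and its interval overlapped that of Msx2 at 0.162 RPKM. From Msx2 down to Bglap, Ibsp, Sp7 and Acan, each interval overlapped the next, so their order could not be read at this depth. In the ASO MALAT1 library the first 5 kept their ranks, but Dlx5 at 6.33 RPKM and Runx2 at 5.86 RPKM then had overlapping intervals. The intervals leave out the choice of transcript length, and the lengths expressed in these cells were not measured. Without division by length, Runx2 stood above Dlx5 in the control, at 33.1 CPM against 9.67 CPM.

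**Figure D1:**
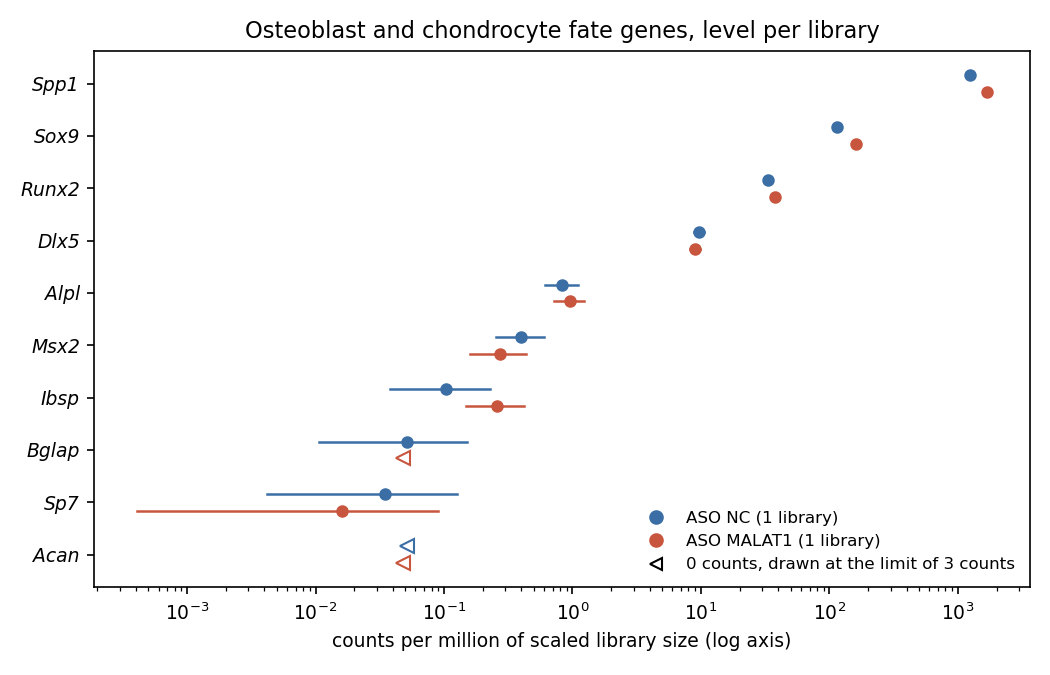
Level of each of the 10 genes in CPM of scaled library size (log axis), with points for the ASO NC and the ASO MALAT1 library and bars for 95% counting intervals. Spp1, Sox9 and Runx2 have separate intervals, while Bglap, Sp7 and Acan lie at or near the limit of 3 counts in both libraries.

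Of the 10 members, 7 reached a sum of 10 counts over the libraries and were compared. None of these 7 passed 2-fold, meaning a 2-fold difference with an interval that excludes 0 (0 higher and 0 lower). By the same rule 1269 of the 17356 genes tested passed, which is 7.31%, with 2.71% higher and 4.6% lower. Sox9, Spp1 and Runx2 were higher in the ASO MALAT1 library by less than 2-fold with intervals above 0. That is 3 of 7, where 26.7% of all genes tested had such an interval and 26.4% had one below 0. Among the 8251 genes that averaged at least 1000 counts, to which these 3 belong, the share was 37.3%. Intervals this narrow exclude 0 for many well-counted genes, so the size of each difference is the more useful value.

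Sox9, the master transcription factor of cartilage, was one of the better expressed regulators. On chromosome 11 from 112782224 to 112787760 (plus strand, GENCODE M21 on GRCm38), it had 6570 counts in the control and 10050 with ASO MALAT1. In scaled levels this was 114 CPM against 162 CPM. The log2 fold change was 0.51 (95% interval 0.46 to 0.55), or 1.42-fold. Of the genes averaging at least 1000 counts, 2.05% had a log2 fold change at least as high.

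The cartilage genes around Sox9 did not share one direction. Acan, the aggrecan gene, had 0 counts in both libraries. Col2a1, which encodes the type II collagen of cartilage and was chosen here after its values were seen, had 378 and 692 counts, which is 0.77 on the log2 scale (95% interval 0.58 to 0.95). Of the partner factors of SOX9 in cartilage, also chosen afterwards, Sox6 had 544 and 403 counts, with a log2 fold change of -0.54 (95% interval -0.73 to -0.35). Sox5 had 7 counts in each library, too few to place. Sox9 was therefore counted beside a low Col2a1 and an undetected Acan in both libraries.

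Over the whole list of cartilage matrix and chondrocyte markers, 21 of 28 genes were tested, with 1 past 2-fold higher and 0 past 2-fold lower. The list's median log2 fold change was -0.0038, against -0.0029 over all genes tested. By interval, 5 genes were higher, 5 were lower and 11 held 0. The gene past 2-fold was Ucma, a small matrix protein of cartilage, with 10 and 30 counts (log2 fold change 1.44, 95% interval 0.41 to 2.68). The genes with the most counts in this list are ones that fibroblasts also express. Versican (Vcan) had 205515 and 278799 counts, 1.26-fold higher in the ASO MALAT1 library. Matn2, a matrilin of many connective tissues, had 20015 and 25789 counts, and Col11a1, a minor fibrillar collagen, had 4719 and 5190 counts with an interval that held 0.

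The list of 10 chondrocyte transcription factors had 7 tested genes and a median of 0.03. Its gene past 2-fold was Barx2, a homeobox gene, with 1 count in control cells and 17 in ASO MALAT1 cells. Its ratio was 11.0, with a counting interval from 2.47 to 660. The best counted genes of the list stayed close to 0 on the log2 scale, at -0.03 for Zbtb20, 0.12 for Foxc1 and 0.03 for Trps1.

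Runx2, the factor without which osteoblasts do not form, had 1909 counts in the control and 2354 with ASO MALAT1. Its gene spans 44495987 to 44814797 on the minus strand of chromosome 17. The scaled levels were 33.1 CPM and 37.9 CPM, a log2 fold change of 0.20 (95% interval 0.11 to 0.28), or 1.15-fold. This is the smallest of the 3 differences with an interval above 0, and 14.7% of genes averaging at least 1000 counts were at least as high. Supt3, a gene on the opposite strand that overlaps Runx2, had 1177 and 1142 counts, and since no source says whether counting used strand, reads shared between them could have gone to either gene.

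Sp7, which acts after RUNX2, was not detectable beyond the limit of 3 counts, with 2 counts in control cells and 1 in ASO MALAT1 cells. No fold is given for it. Runx2 was thus well counted in both libraries while Sp7 lay at the limit.

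Dlx5, a homeodomain activator of osteoblast genes, had nearly equal counts, 558 in control cells and 560 in ASO MALAT1 cells. Scaled, these were 9.67 CPM and 9.01 CPM, a log2 fold change of -0.10 (95% interval -0.27 to 0.07). This interval runs from 0.828-fold to 1.05-fold of the control. It covers counting error only and sets no bound on a difference between cultures. Dlx6, its neighbour in the same gene pair, chosen after its values were seen, had 2 counts in each library, and the antisense transcript Dlx6os1 next to them had 72 and 83 counts. Msx2, the homeodomain factor of early skeletal progenitors, had 23 counts in control cells and 17 in ASO MALAT1 cells. Its log2 fold change of -0.53 had an interval from -1.54 to 0.43, which is too wide to give a direction. Its relative Msx1, also chosen afterwards, was better counted, with 235 and 263 counts and an interval from -0.20 to 0.32.

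**Figure D2:**
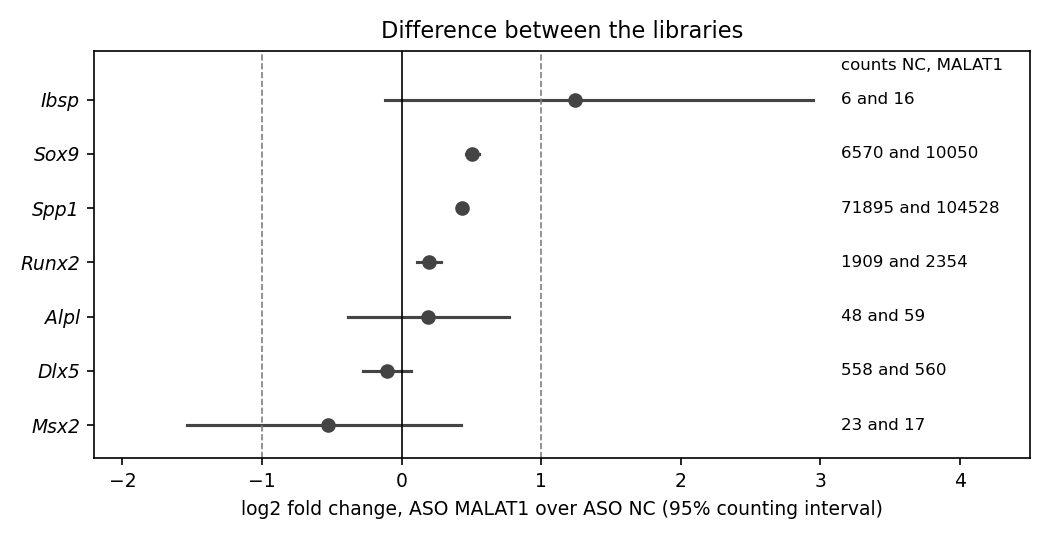
Log2 fold change of the 7 genes tested, ASO MALAT1 over ASO NC, with 95% counting intervals as bars, dashed lines at a 2-fold difference and the counts of each library at the right. Sox9, Spp1 and Runx2 lie above 0 with their whole interval and below the 2-fold line, and the intervals of Ibsp, Alpl, Dlx5 and Msx2 hold 0.

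Among the osteoblast transcription factors and cofactors, 16 of 20 were tested and 0 passed 2-fold in either direction. Their median was 0.05, with 6 higher and 5 lower by interval. Vdr, the vitamin D receptor that acts in bone cells, had 15968 and 19902 counts (log2 fold change 0.21). Atf4, which acts in late osteoblasts and in the amino acid stress response, had 15744 and 12772 counts (log2 fold change -0.41). Tle3, a corepressor, had 7929 and 7284 counts (log2 fold change -0.23). Lef1, a Wnt-responsive factor chosen after its values were seen, was the lowest of the list, with 794 and 460 counts and a log2 fold change of -0.89 (95% interval -1.06 to -0.73).

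Spp1 was the most abundant member by far. Osteopontin, its product, is a phosphoprotein of bone matrix that fibroblasts, macrophages and other cells also make. Spp1 had 71895 counts in the control and 104528 with ASO MALAT1, or 1246 CPM against 1682 CPM. The log2 fold change was 0.43 (95% interval 0.42 to 0.45), or 1.35-fold. Of the genes averaging at least 1000 counts, 2.91% were at least as high. Because of its abundance, Spp1 makes up most of the members' summed level, 1404 CPM for the control and 1893 CPM for the ASO MALAT1 library.

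Spp1 lies in a cluster of related matrix genes on chromosome 5, together with Ibsp, Dmp1, Dspp and Mepe. Ibsp, whose product nucleates mineral, had 6 counts in control cells and 16 in ASO MALAT1 cells. Its ratio of 2.37 had a counting interval from 0.921 to 7.73, so a difference was not detectable at this depth. Of genes with a mean under 25 counts, 25.2% passed the 2-fold rule, which Ibsp did not. Dmp1, a matrix protein of osteocytes, had 339 and 360 counts and a log2 fold change of -0.02 (95% interval -0.24 to 0.20). Dspp had 0 and 4 counts and Mepe had 0 in both. Pkd2, the next gene after Spp1 and no matrix gene, had 13378 and 18875 counts, with a difference of 0.39 on the log2 scale (95% interval 0.36 to 0.42). In this cluster the abundant Spp1 was higher, while the intervals of Dmp1 and Ibsp held 0.

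Alpl, whose alkaline phosphatase frees phosphate for mineral and which is the usual early marker of osteoblasts, had 48 counts in control cells and 59 in ASO MALAT1 cells. The scaled levels were 0.832 CPM and 0.950 CPM, a log2 fold change of 0.19 with an interval from -0.38 to 0.77. Bglap, the osteocalcin gene of mature osteoblasts, had 3 counts in control cells and 0 in ASO MALAT1 cells, and no fold is given. Its copies in the same cluster on chromosome 3 were equally rare, with 0 counts in both libraries for Bglap2 and 0 and 2 counts for Bglap3. The main transcripts of Bglap and Bglap2 are 98.9% identical over 439 aligned bases, and those of Bglap and Bglap3 are 96.4% identical. Reads of these genes could therefore have been split or dropped, depending on how reads with several matches were counted, which is not stated. Alpl, Ibsp and Bglap were thus rare in both libraries beside the abundant Spp1.

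**Figure D3:**
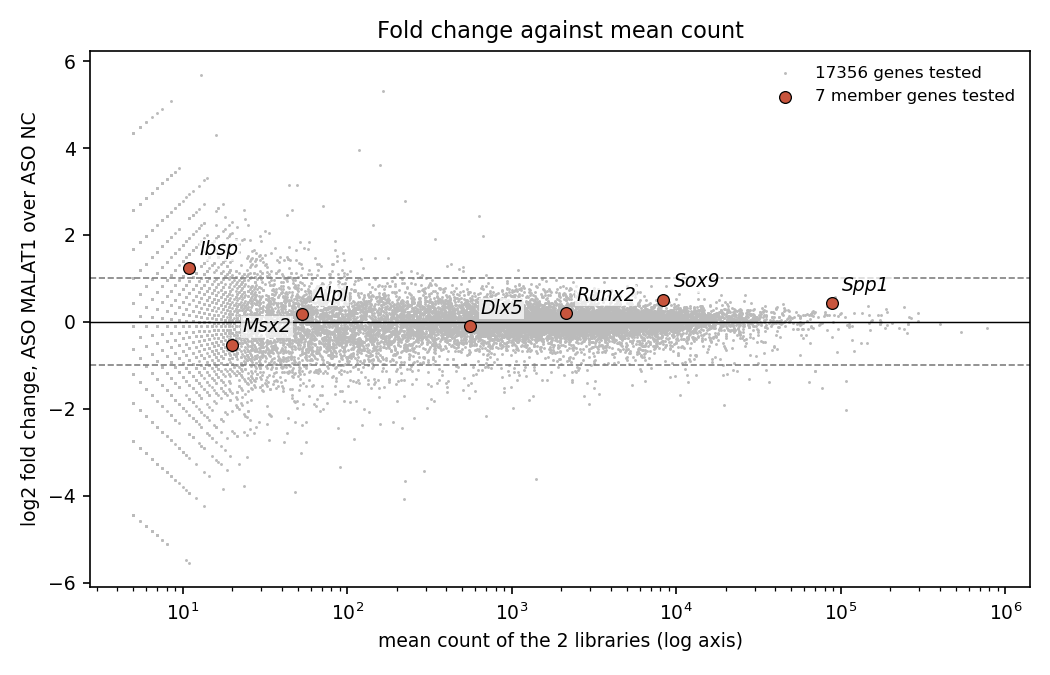
Log2 fold change of all 17356 genes tested (grey) against the mean count of the libraries (log axis), with the 7 members tested in red and dashed lines at a 2-fold difference. Ibsp and Msx2 lie where the grey points fan out, and Sox9 and Spp1 lie near the upper edge of the points at their counts.

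The other genes of bone matrix and mineralization, 26 in the list, had 19 tested, with 1 past 2-fold higher, 0 past 2-fold lower and a median of 0.16. By interval 13 were higher and 3 lower. The collagen genes Col1a1, with 159641 and 190642 counts, and Col1a2, with 264064 and 328873 counts, had log2 fold changes of 0.15 and 0.21. They encode type I collagen, the main protein of bone matrix, which fibroblasts make as well. Postn, a matrix protein of periosteum and fibroblasts, had a log2 fold change of 0.16. Pth1r, the receptor for parathyroid hormone, was the gene past 2-fold, with 13 and 31 counts (log2 fold change 1.12, 95% interval 0.17 to 2.21). The next genes of this list were chosen after their values were seen. Tnfrsf11b, which encodes the osteoclast inhibitor osteoprotegerin, had 746 and 1319 counts, which is 0.72 on the log2 scale (95% interval 0.59 to 0.85). Phospho1, a phosphatase that starts mineralization and is also expressed in brown fat, had 3391 and 1912 counts, which is -0.93 on the log2 scale (95% interval -1.01 to -0.85).

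Signals that induce bone and cartilage were examined next. BMP signalling, which can turn C3H10 cells towards bone, had 18 of 22 genes tested, 0 past 2-fold higher, 1 past 2-fold lower and a median of 0.18. By interval 14 were higher and 2 lower. The best counted were the receptors Bmpr1a, with 7683 and 8969 counts, and Bmpr2, with 6733 and 8129 counts, and the BMP target Id1, with 6090 and 7390 counts. Their log2 fold changes were 0.12, 0.17 and 0.17. The gene past 2-fold was Nog, which encodes the BMP antagonist noggin, with 9 counts in control cells and 1 in ASO MALAT1 cells (ratio 0.149, counting interval 0.0024 to 0.745). Grem1, another BMP antagonist, chosen after its values were seen, had 665 and 1206 counts, which is 0.75 on the log2 scale (95% interval 0.61 to 0.89).

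Hedgehog signalling, which links cartilage growth to bone formation, had 8 of 11 genes tested and a median of 0.04. By interval 4 were higher and 2 lower. The ligand gene Ihh had 1 and 12 counts and passed 2-fold higher, with a ratio of 7.85 and a counting interval from 1.65 to 476. Smo, the signal transducer, with 7947 and 8943 counts, and Sufu, an inhibitor, with 5153 and 5617 counts, had log2 fold changes of 0.06 and 0.02. Gli3 had 2242 and 3433 counts and a log2 fold change of 0.51 (95% interval 0.43 to 0.59). Ptch1, chosen after its values were seen, was lower, with 1579 and 1385 counts (log2 fold change -0.30, 95% interval -0.40 to -0.19). Gli1, also chosen afterwards, had 49 and 35 counts and an interval from -1.26 to 0.06. Of the genes named here as past 2-fold in the skeletal and signalling lists, each had at most 31 counts in either library.

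Markers of other cell types moved as follows. Mesenchymal progenitor and fibroblast markers had 13 of 14 genes tested, with 10 higher and 0 lower by interval and a median of 0.26. Their levels summed to 10673 CPM for the control and 11871 CPM for ASO MALAT1. Prrx1, a transcription factor of limb mesenchyme, had a log2 fold change of 0.26, Vim of 0.23 and Fn1 of 0.03, while Cd34, with 19 and 69 counts, passed 2-fold higher. The adipocyte markers, 12 in the list, summed to 6555 CPM for the control and 2895 CPM for ASO MALAT1, and 11 of the 11 tested were lower by interval. Retn, Gpd1 and Lpl had log2 fold changes of -1.99, -1.91 and -1.37. In bulk RNA, fewer cells of a type and less RNA per cell cannot be told apart, and the part of these shifts in the values of Sox9, Spp1 and Runx2 was not tested.

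Set against the median of the progenitor list, an alternative chosen after the data were examined, the log2 fold change was 0.24 for Sox9, 0.17 for Spp1, -0.07 for Runx2 and -0.37 for Dlx5. The counting intervals of Sox9 and Spp1 lay above that list median of 0.26, and that of Dlx5 lay below it. The median was taken as an exact value, although the list's tested genes ranged from -0.84 to 1.73. Sox9, Spp1 and Dlx5 lay within that range, so their side of the median does not set them apart from the list. The interval of Runx2, 0.11 to 0.28, held the median, so no side can be read for Runx2. Alpl, Ibsp and Msx2, at -0.07, 0.98 and -0.79 against the median, had wide intervals that also held it. Skeletal muscle markers had 1 of 8 genes tested, and 5 of the 8, Myod1 and Myog among them, had 0 counts in both libraries. Des was the gene tested, with 448 and 314 counts. Of 12 macrophage and osteoclast markers, 6 had 0 counts in both libraries, Ptprc, Adgre1 and Itgam among them. The list summed to 36.2 CPM and 38.8 CPM, most of it from Nfatc1 at 27.6 CPM and 32.2 CPM. Of the 6 tested, 2 were higher by interval, 2 were lower and 2 held 0. Cd68, with 172 and 119 counts, was lower by interval, and the interval of Mmp9, with 248 and 230 counts, held 0. Csf1r, with 3 and 13 counts, passed 2-fold higher, and Acp5, with 28 and 6 counts, passed 2-fold lower.

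**Figure D4:**
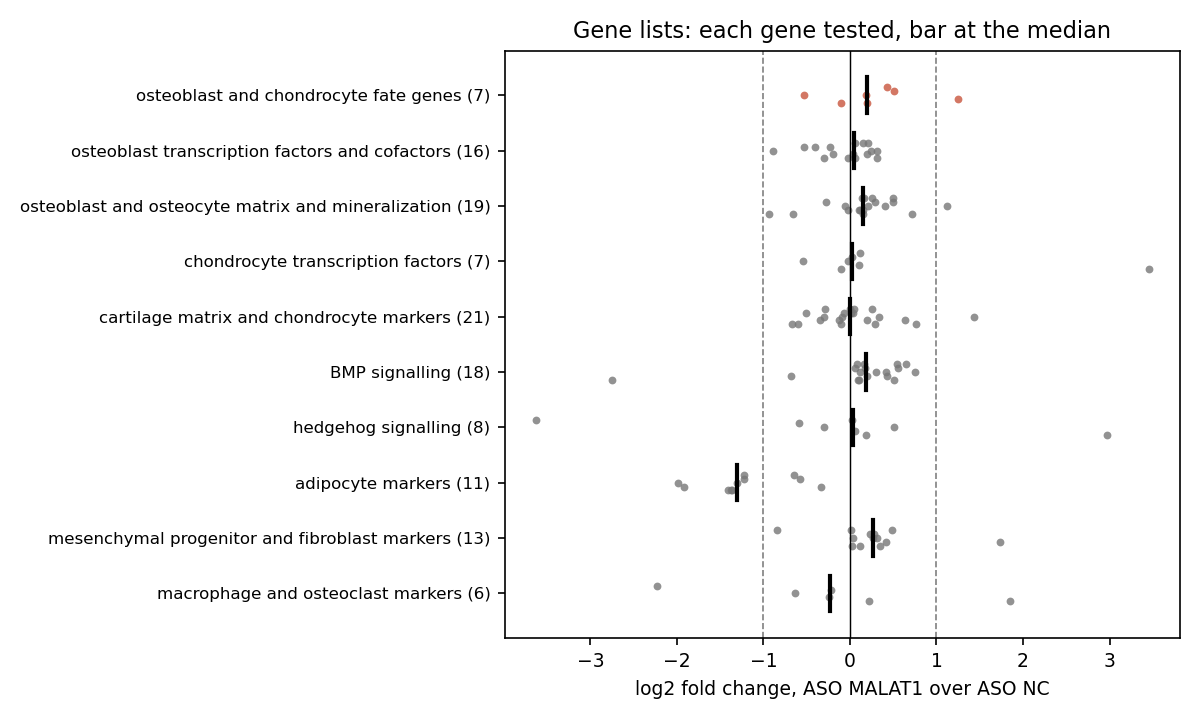
Log2 fold change of each gene tested, ASO MALAT1 over ASO NC, in the osteoblast and chondrocyte fate genes (red) and in the other lists (grey, without the muscle list and its single gene tested), with the number tested in parentheses, a bar at each median and dashed lines at a 2-fold difference. The medians of the skeletal lists lie between -0.0038 and 0.20, beside 0.26 for the progenitor list and -1.30 for the adipocyte list.

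The nearest genes on either side of the members were also compared. With the 3 nearest tested genes on each side, the 10 members had 56 different neighbours (Spp1 and Ibsp among them, for each other), of which 3 passed 2-fold higher and 1 passed 2-fold lower. That is 7.14% of the neighbours, close to the 7.31% of all genes tested. Before Sox9, which starts at 112782224, the nearest tested genes lay well apart from it. Kcnj16, a potassium channel gene that ends at 111027968, had 6 and 41 counts, and the pseudogene Gm11677, which ends at 111725624, had 26 and 13. Kcnj2, which ends at 111076821, had 290 and 465 counts, with a log2 fold change of 0.57 (95% interval 0.36 to 0.79). On the other side of Sox9, the noncoding gene 2610035D17Rik had 269 and 431 counts and also a log2 fold change of 0.57 (95% interval 0.35 to 0.80). Also on that side, Slc39a11 had a log2 fold change of 0.16, and Cog1 had one of -0.01 with an interval that held 0. Elsewhere, the neighbours past 2-fold were Amhr2 near Sp7, with 4 and 16 counts, and Rap1gap near Alpl, with 14 and 42 counts.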

How the data were processed

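Total RNA of 1 library per group was depleted of rRNA and prepared with a directional kit. The authors deposited whole-number counts of reads per gene symbol, without normalization. The submitters' processing notes name HISAT2 and the build GRCm38. The counting tool, annotation, strand setting and treatment of reads with several matches are not given in the sources used here. No paired libraries and no columns of other samples were present.

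Genes whose counts in the libraries summed to at least 10 were compared, 17356 in all. Counts were scaled by TMM factors (edgeR 4.0.16, R 4.3.3; 0.992 for ASO NC and 1.01 for ASO MALAT1). Exact 95% Clopper-Pearson intervals of each ratio and exact Poisson intervals of each level (up to 3 counts for a count of 0) were computed with scipy 1.17.1 and cover counting error only. A gene passed 2-fold at a log2 fold change of 1 or more in either direction with an interval that excludes 0. No p-value is given, because quasi-likelihood tests need replicates. Code was tested on simulated data. Positions and transcript lengths came from GENCODE M21 on GRCm38, promoters from RefSeq (GRCm38.p6), and alignments from Biopython 1.88.

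Members and lists were chosen with earlier results of these data known, and the lists came from general knowledge, not from a database. Cnmd and Snorc were found under older symbols. Named are all members, Malat1, paralogues, neighbours, and from each list up to 4 genes past 2-fold and the 3 with the most counts. At most 3 examples were planned for the adipocyte, progenitor, muscle and macrophage lists, and more are named in the progenitor and macrophage lists. From the muscle and macrophage lists, examples without counts are also named. Other genes outside this rule are said to have been chosen later. Alternatives were library totals, DESeq2 1.42.0 size factors, upper-quartile factors, a prior count of 2, other count filters and thresholds, an exact binomial test with Benjamini-Hochberg adjustment, edgeR's exact test with a preset coefficient of variation, and counts divided by 4. A result for 1 listed gene is not reported here.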

Additional observations from a re-analysis of the deposited data

How the results depend on the processing

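The count of 0 members past 2-fold was also 0 under the 3 other scalings, the other prior count, both other filters, a 1.5-fold threshold, the adjusted binomial test, edgeR's exact test with each preset coefficient of variation and counts divided by 4. It was 3 with no fold threshold, and these are Sox9, Spp1 and Runx2. The larger prior count, the adjusted binomial test, edgeR's exact test and the divided counts can only make passing harder. So can the minimum of 10 counts for each library. The 0 under these settings was therefore fixed in advance and is no separate check, though it is among the 156 values counted below. Over the scalings and priors, the log2 fold change ranged from 0.51 to 0.53 for Sox9, from 0.43 to 0.46 for Spp1, where library totals gave the highest value, and from 0.20 to 0.22 for Runx2. The median of the members tested, 0.20, was -0.068 relative to the progenitor list, since that list's median of 0.26 was subtracted. Over all genes, 1269 passed 2-fold. This count was 596 when each library had to reach 10 counts, 2294 at 1.5-fold, 9215 with no fold threshold and 354 with counts divided by 4. With edgeR's exact test it was 668, 117 and 1 at preset coefficients of 0.1, 0.2 and 0.4. The minimum of 10 counts for each library leaves fewer genes to test, and there 0 genes passed 2-fold in the lists of chondrocyte transcription factors, BMP signalling, hedgehog signalling, and macrophage and osteoclast markers. Of 156 recomputed counts, medians and Malat1 log2 fold changes, 143 stayed within the limits set for them. A count had to stay within 1.5 times its main value, and Malat1 had to stay at least 2-fold lower. A median had to move by less than the median half-width of the counting intervals of its single genes, which is a wide limit. No paired analysis was possible because each group holds 1 library. Replicate libraries were not analysed here, so the spread between cultures is unknown. The counting intervals of Ibsp and Msx2, each averaging under 25 counts, held 0 and also reached past 2-fold.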
